A study of Homo sapiens with 10 samples.

Results

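Heat shock chaperones of the cytosol and mitochondria were described across clones of the human colorectal cancer line DLD-1 after knockdown of LMNB1, the gene of the nuclear lamina protein lamin B1. The list held 38 genes, and a gene was taken where a probe of the array carried its symbol and no other. That gave 28 genes with 1 probe each, all among the 11198 genes tested after a filter on low values. Of the other 10 genes, 7 had only probes that the annotation shares with another gene, and 3 (AHSA1, PTGES3 and HSF2) had no probe in the annotation used here. SERPINH1, also on the list, works in the endoplasmic reticulum and not in the compartments the list is named for.

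Levels are log2 values from 10 exon arrays of bulk RNA, so that fewer cells and less RNA per cell cannot be told apart. The knockdown groups carried short hairpin RNA (shRNA) against LMNB1. Construct V2LHS_62673 was carried by single cell clones 8, 9 and 12, with 1 array each. Construct V2LHS_62675 was carried by 1 clone, number 2 by the sample descriptions and number 12 by the titles, with 3 arrays that were averaged. The negative controls were 3 clones of cells with an empty vector and 1 culture of wild type cells without a vector. All but the wild type cells grew with puromycin, which means that the wild type culture differed from the clones in vector, drug and cloning together. The tests therefore rest on 8 samples, 4 knockdown clones and 4 controls. Clone 2 and wild type cells stand alone in their groups, and their tests assume the spread of the others.

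LMNB1 itself, on a probe shared with PCIF1, had a log2 level of 7.65 ± 0.14 (SD, n = 4) in the knockdown clones and 9.11 ± 0.30 (SD, n = 4) in the controls, which is 36.3% of the control level. Clone 8 stood apart, with r = 0.915 to 0.926 against the other arrays, whose own correlations were 0.986 to 0.994. Its array had a median log2 level of 7.62, against 7.34 to 7.41 for the rest. Each comparison is therefore given with and without clone 8. Array 1 of clone 2 also lay apart from that clone's arrays 2 and 3, at r = 0.988 to each, while arrays 2 and 3 had r = 0.994. Outside clone 2, array 1 lay nearest to clone 12 (r = 0.991), and arrays 2 and 3 nearest to wild type cells (r = 0.991 and 0.993). These are correlations across probes, which are not independent replicates. All 9 colon epithelium markers were above the filter. Of the markers with a probe, 1 of 4 for leukocytes, 4 of 6 for fibroblasts and 2 of 4 for endothelium were, and each of these lists had its highest mean level in clone 8.

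Chaperones hold unfolded proteins and help them reach their folded state. Hsp70 proteins bind exposed stretches of a client. J-domain proteins bring clients to Hsp70 and start its ATP cycle, and exchange factors of the Hsp110 and BAG families release the nucleotide again. Co-chaperones such as STIP1 pass clients on to Hsp90, which matures kinases and steroid receptors. The ring-shaped TRiC/CCT chaperonin folds actin and tubulin, and HSPD1 with its lid HSPE1 does the same work for proteins of the mitochondrial matrix. Much of the network is under heat shock factor 1 (HSF1), which binds inverted repeats of a short GAA unit, the heat shock element, in its target promoters.

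Promoter sequences are shown for the genes on which the comparisons turn (DNAJA1, BAG1, STIP1 and HSPB1) and for CHORDC1, which was added after its values were seen because it varied most over the samples other than clone 8. They are the 250 bases upstream of the gene's start, 5′ to 3′ on the gene's strand, from RefSeq on GRCh38.p14. Capitals mark matches to GAANNTTC or TTCNNGAA, that is 2 adjoining units of a heat shock element. Both motifs read the same on either strand, and overlapping matches were counted. The DNAJA1 window is chr9:33025023-33025272 on the plus strand, BAG1 chr9:33264709-33264958 on the minus strand, STIP1 chr11:64185022-64185271 on the plus strand, HSPB1 chr7:76302423-76302672 on the plus strand and CHORDC1 chr11:90223050-90223299 on the minus strand.
DNAJA1: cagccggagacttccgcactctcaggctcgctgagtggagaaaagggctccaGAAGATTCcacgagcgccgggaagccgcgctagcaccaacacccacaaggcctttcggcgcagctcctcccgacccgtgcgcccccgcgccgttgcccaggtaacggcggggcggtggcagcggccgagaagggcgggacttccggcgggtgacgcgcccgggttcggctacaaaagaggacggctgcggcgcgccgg
BAG1: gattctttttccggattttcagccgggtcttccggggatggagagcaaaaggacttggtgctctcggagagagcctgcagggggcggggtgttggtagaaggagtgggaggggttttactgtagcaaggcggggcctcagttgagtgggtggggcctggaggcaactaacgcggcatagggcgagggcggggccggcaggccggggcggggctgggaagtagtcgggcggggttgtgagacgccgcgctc
STIP1: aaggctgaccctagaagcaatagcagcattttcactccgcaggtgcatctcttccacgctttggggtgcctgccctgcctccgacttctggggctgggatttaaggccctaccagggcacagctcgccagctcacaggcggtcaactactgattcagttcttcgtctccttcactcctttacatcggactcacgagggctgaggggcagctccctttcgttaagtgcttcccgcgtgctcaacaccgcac
HSPB1: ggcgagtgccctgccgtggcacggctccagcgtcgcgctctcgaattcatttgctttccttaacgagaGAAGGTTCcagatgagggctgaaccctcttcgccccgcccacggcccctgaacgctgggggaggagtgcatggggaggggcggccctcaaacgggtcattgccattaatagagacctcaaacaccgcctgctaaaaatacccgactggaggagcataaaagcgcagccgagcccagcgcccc
CHORDC1: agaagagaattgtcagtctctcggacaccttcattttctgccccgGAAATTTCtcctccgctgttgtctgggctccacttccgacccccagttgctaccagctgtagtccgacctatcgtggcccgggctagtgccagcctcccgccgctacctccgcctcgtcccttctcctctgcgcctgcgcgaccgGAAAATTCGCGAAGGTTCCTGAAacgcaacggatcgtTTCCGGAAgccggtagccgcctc
DNAJA1 had 1 match, 198 to 191 bases upstream of its start, and HSPB1 had 1 match, 182 to 175 bases upstream. CHORDC1 had 6, of which 4 overlap in a run from 60 to 38 bases upstream. The windows of BAG1 and STIP1 held no match.

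RefSeq promoters were matched for 35 of the 38 genes and for 26 of the 28 measured ones (not for ST13, FKBP4 and HSF1). A match was found in 6 of the 26 measured genes (23.1%), namely HSPA8, DNAJA1, BAG2, CHORDC1, HSPB1 and SERPINH1, and in 3208 of all 27305 promoters (11.7%). A run of 3 units, GAANNTTCNNGAA or TTCNNGAANNTTC, was found in HSPA8, CHORDC1 and SERPINH1, 3 of the 26 (11.5%), and in 120 of all promoters (0.439%). HSPA8, the constitutive cytosolic Hsp70, had 4 short matches in 2 overlapping pairs, the nearer of them 55 to 43 bases upstream.

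Knockdown clones against negative controls asked whether the chaperones moved with LMNB1. None of the 28 passed the test (limma, Benjamini-Hochberg over all genes, adjusted p under 0.05), and neither did any of the 11198 genes (0%). At an unadjusted p under 0.05 there was 1 chaperone, DNAJA1, and 255 genes (2.28%). The chaperones had 13 higher and 15 lower, with a median log2 difference of -0.01 and a span of -0.42 to 0.54, and of all genes 56.0% were higher, with a median of 0.04. Without clone 8 the split was 20 higher and 8 lower with a median of 0.06, beside 51.9% of all genes. No gene passed then either (0%), and 3 chaperones (DNAJA1, BAG3 and STIP1, each higher) and 723 genes (6.46%) had an unadjusted p under 0.05.

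**Figure D1:**
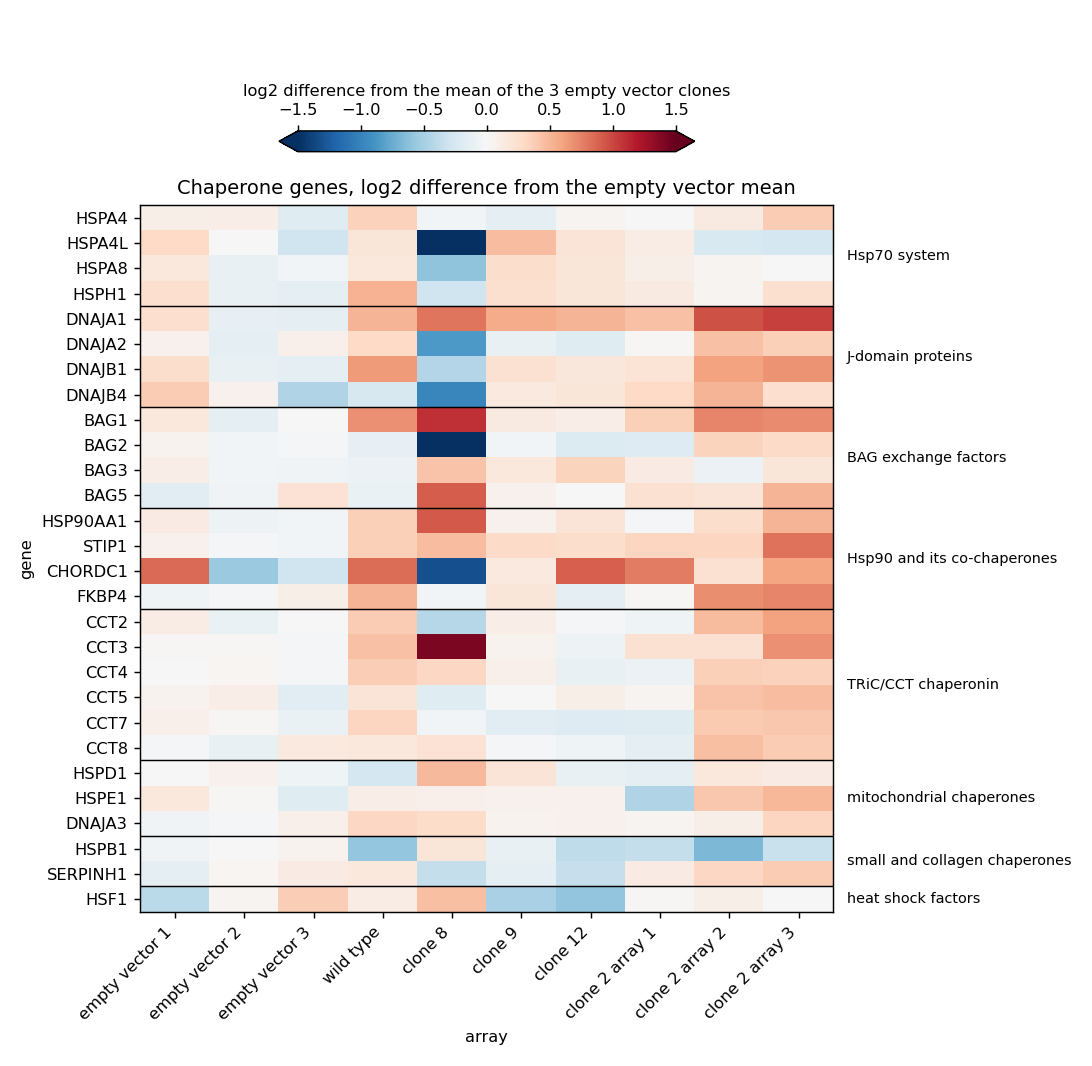
Log2 difference of each of the 28 chaperone genes (lines, grouped by role) from the mean of the 3 empty vector clones, on each of the 10 arrays (columns); colours are capped at 1.5 either way. Clone 8 holds the strongest colours in both directions, arrays 2 and 3 of clone 2 and the wild type array are mostly above the empty vector mean, and array 1 of clone 2 is paler.

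DNAJA1 is a J-domain partner of cytosolic Hsp70. Its log2 level was 7.91, 7.92 and 8.29 in the empty vector clones and 8.55 in wild type cells, against 8.84 in clone 8, 8.60 in clone 9, 8.55 in clone 12 and 8.85 in clone 2. Every knockdown clone lay above every control, but clone 12 exceeded wild type cells by only 0.00232, and array 1 of clone 2 taken alone (8.48) lay below them. Groups that did not overlap were found in 350 genes (3.13%), and DNAJA1 was the only chaperone among them. The difference was 0.54 (SE 0.17, 95% interval 0.16 to 0.92), or 1.45-fold. Its limma adjusted p was 0.761, with 0.71 for a difference of 0.50 without clone 8 and a range of 0.0935 to 0.921 over the alternatives. An exact permutation test gave p = 0.0286, two-sided, which is the smallest that 4 against 4 samples can give. DNAJA1 was picked by its small limma p in the same comparison, and the exact p is not adjusted for that choice. Against the empty vector clones alone, wild type cells were higher by 0.50, and they lay nearer to the mean of the knockdown clones (8.71) than to that of the empty vector clones (8.04).

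BAG3, an exchange factor of Hsp70 that also takes part in autophagy, was at 7.93, 7.96, 7.97 and 8.11 in the controls. The knockdown clones had 8.08 in clone 2, 8.17 in clone 9, 8.35 in clone 12 and 8.44 in clone 8. Only clone 2 lay within the range of the controls. The difference was 0.27 (SE 0.12), with a limma adjusted p of 0.761 and an exact permutation p of 0.0571. STIP1, which bridges Hsp70 and Hsp90, was at 10.19, 10.21 and 10.29 in the empty vector clones and 10.59 in wild type cells, and at 10.49 in clone 12, 10.52 in clone 9, 10.69 in clone 8 and 10.72 in clone 2. The knockdown clones were above each empty vector clone and on both sides of wild type cells. The difference was 0.28 (SE 0.13), with a limma adjusted p of 0.761 and an exact permutation p of 0.0857.

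For HSPA4L, CCT3 and BAG2 clone 8 lay far from all other samples. HSPA4L, an Hsp110 relative, was at 8.17 in clone 8, and the other 7 samples had 9.69 to 10.45. Its difference between knockdown clones and controls was -0.37 (SE 0.42) with clone 8 and 0.13 (SE 0.17) without it. The TRiC subunit CCT3 was at 9.88 in clone 8 and between 8.39 and 8.91 elsewhere, and its difference went from 0.33 (SE 0.29) to 0.01 (SE 0.14). BAG2, which restrains the ubiquitin ligase CHIP, was at 8.59 in clone 8 and between 10.08 and 10.43 elsewhere. In 9 of the 28 chaperones the sign of the difference turned without clone 8: HSPA4L, HSPA8, HSPH1, DNAJB1, DNAJB4, CHORDC1, FKBP4, CCT2 and CCT4.

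HSPD1, the mitochondrial chaperonin, was at 8.45 in wild type cells, 8.65, 8.70 and 8.78 in the empty vector clones, and 8.60, 8.76, 8.90 and 9.20 in clones 12, 2, 9 and 8. The groups overlapped, and the difference was 0.22 (SE 0.15). The collagen chaperone SERPINH1 was at 9.07, 9.25, 9.34 and 9.38 in the controls and at 8.86, 8.87, 9.07 and 9.49 in clones 8, 12, 9 and 2. Clone 2 was the highest sample, apart from the other knockdown clones, and the difference of -0.19 (SE 0.16) did not pass. HSF1 ranged widely within each group. It was at 8.41, 8.86 and 9.18 in the empty vector clones, 8.93 in wild type cells, and 8.22, 8.33, 8.85 and 9.27 in clones 12, 9, 2 and 8, a difference of -0.17 (SE 0.25). Each of these 3 genes had a limma adjusted p of 0.761 to 0.773. Without clone 8 the differences were 0.11 for HSPD1, -0.11 for SERPINH1 and -0.38 for HSF1, and none passed.

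**Figure D2:**
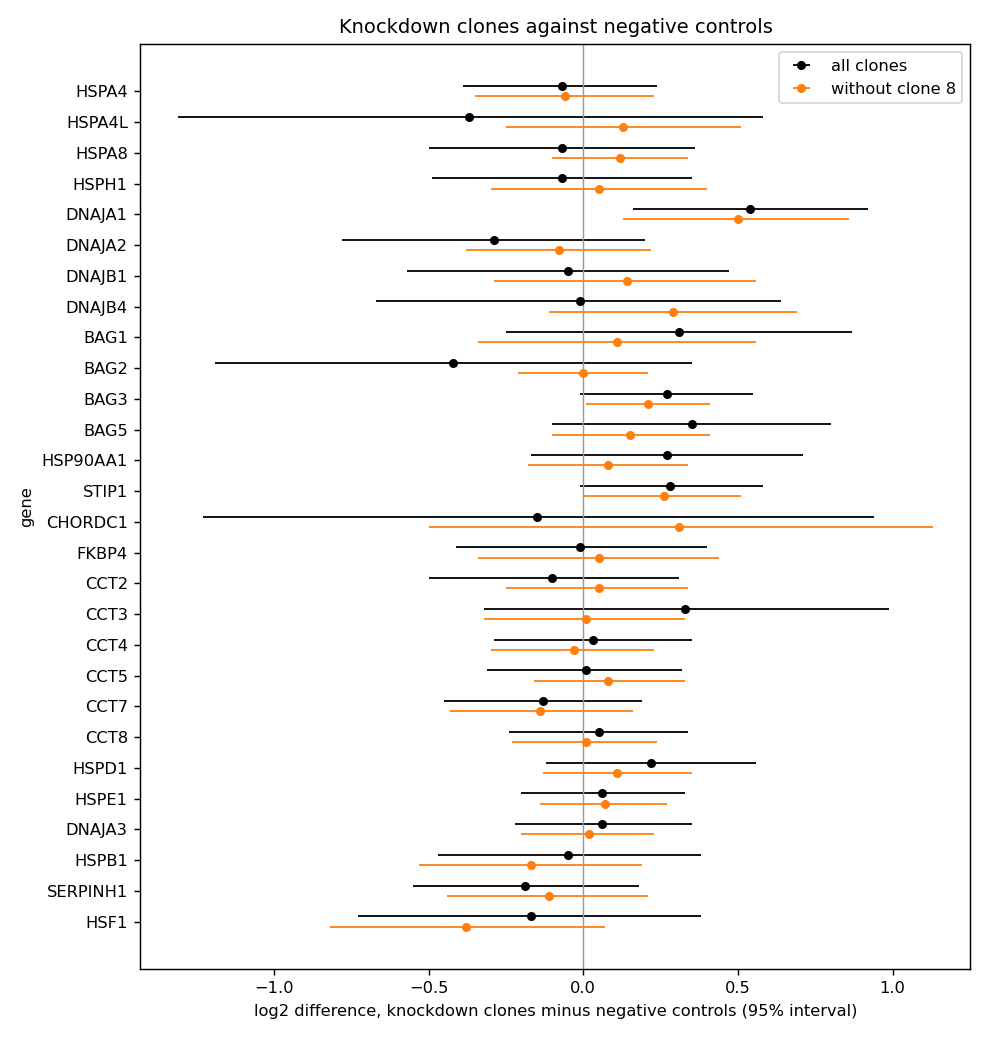
Log2 difference between knockdown clones and negative controls for each chaperone gene, with 95% intervals, over all clones (black) and without clone 8 (orange). With all clones, only the DNAJA1 interval (0.16 to 0.92) lies clear of 0; the HSPA4L, BAG2 and CCT3 estimates lie nearer to 0 without clone 8.

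Of the chaperones not yet given, none passed in this comparison. In the Hsp70 system, HSPA4, HSPA8 and HSPH1, an Hsp110 exchange factor, had differences of -0.07 each. Without clone 8 they had -0.06, 0.12 and 0.05. The J-domain proteins DNAJB1 and DNAJB4 had -0.05 and -0.01, and 0.14 and 0.29 without clone 8. HSP90AA1, the inducible cytosolic Hsp90, had 0.27 and BAG5 0.35, with clone 8 as the highest sample of both (13.21 and 8.66), and without it 0.08 and 0.15. The TRiC subunits CCT2, CCT4, CCT5, CCT7 and CCT8 lay between -0.13 and 0.05, and HSPE1 and DNAJA3 of the mitochondrion had 0.06 each. The narrowest range over the 8 samples was that of HSPE1, at 0.34.

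Clone 8 departed from the mean of the other 7 samples by more than 1 log2 unit in 5 of the 28 chaperones, with CCT3 above and HSPA4L, DNAJB4, BAG2 and CHORDC1 below. The share of all genes was 15.6%, and the median size of the departure was 0.479 for the chaperones and 0.551 for all genes. The median departure was -0.02 for the chaperones and 0.20 for all genes. Beyond the limit of 1 log2 unit, however, all genes also lay more often below (1328) than above (415). The leukocyte, fibroblast and endothelium lists (5.21, 6.65 and 6.31, against at most 4.84, 6.13 and 5.81 elsewhere) and the median level of the array were also higher in clone 8, and their part in these values was not tested.

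Construct V2LHS_62673 against the empty vector clones gave a similar picture. With all clones, 14 chaperones were higher and 14 lower (median -0.01, beside 55.2% of all genes higher and a median of 0.04). No gene passed (0%), and at an unadjusted p under 0.05 there were 2 chaperones, DNAJA1 and STIP1, and 358 genes (3.20%). Without clone 8, 18 were higher and 10 lower (median 0.04, beside 49.8% of all genes). No chaperone passed, while 110 genes did (0.982%), and 6 chaperones, 3 higher and 3 lower, and 1783 genes (15.9%) had an unadjusted p under 0.05. The 6 were DNAJA1, BAG3 and STIP1, which were higher, and HSPB1, SERPINH1 and HSF1, which were lower.

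DNAJA1 was higher in each of these 3 clones than in each empty vector clone, by 0.62 on average (SE 0.17, limma adjusted p = 0.742), and without clone 8 by 0.53 (SE 0.12, limma adjusted p = 0.074). Empty vector clone 1 was above both other empty vector clones in DNAJA1 and CHORDC1 and below both in HSF1. Leaving it out, a choice made after the data were seen, therefore widens these differences. Without it and clone 8, 3 chaperones passed: DNAJA1 (0.66), CHORDC1 (0.94) and HSF1 (-0.74), among 492 genes (4.39%). Without empty vector clone 2 or 3 in its place none passed, while 4 and 3 genes did (0.0357% and 0.0268%). The differences were then 0.47 both times for DNAJA1, 0.24 and 0.37 for CHORDC1 and -0.52 and -0.36 for HSF1. HSF1 without clone 8 had a difference of -0.54 (SE 0.18, limma adjusted p = 0.17). Clones 9 and 12 lay below every empty vector clone in it, and clone 8 above them all. STIP1 had 0.34 (SE 0.14) and BAG3 0.31 (SE 0.15) with all clones, each with a limma adjusted p of 0.742.

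Clone 2 of construct V2LHS_62675 had more of the chaperones above the empty vector clones than the other knockdown clones did. The mean of its 3 arrays was above the empty vector mean in 26 of 28, with a median log2 difference of 0.24, while 56.4% of all genes were higher and their median was 0.02. It lay above all 3 empty vector clones in 18 chaperones (of all genes, 31.8%) and below all 3 in 1, HSPB1 (of all genes, 25.3%). Clone 8 lay above them in 13 chaperones (of all genes, 53.6%), clone 9 in 9 (27.9%) and clone 12 in 6 (27.3%). With all clones no gene passed (0%), and 2 chaperones, DNAJA1 and STIP1, and 295 genes (2.63%) had an unadjusted p under 0.05. Without clone 8, 3 chaperones passed, DNAJA1, BAG1 and STIP1, each higher, among 418 genes (3.73%), and 9 chaperones and 2033 genes (18.2%) had an unadjusted p under 0.05.

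DNAJA1 had 8.48, 8.99 and 9.07 on arrays 1, 2 and 3 of clone 2, each above the highest empty vector clone (8.29). Its difference from the empty vector clones was 0.80, or 1.74-fold (SE 0.16, limma adjusted p = 0.0229 without clone 8; SE 0.24, adjusted p = 1.0 with it). BAG1, an exchange factor that links Hsp70 to the proteasome, was at 7.76, 7.90 and 8.06 in the empty vector clones and at 8.26, 8.64 and 8.61 on the arrays of clone 2. All 3 arrays were above the empty vector clones, as was clone 8 (9.00), while clones 9 and 12 (8.04 and 8.01) lay within their range. The BAG1 difference was 0.60 (SE 0.13, limma adjusted p = 0.0391 without clone 8; adjusted p = 1.0 with it). STIP1 had 10.55, 10.55 and 11.05, with array 3 apart from the other two, and a difference of 0.49 (SE 0.11, limma adjusted p = 0.0454 without clone 8; adjusted p = 1.0 with it).

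FKBP4, an Hsp90-bound immunophilin of steroid receptors, came next. Its log2 level was 10.28, 10.32 and 10.43 in the empty vector clones, 10.30, 10.52 and 10.21 in clones 8, 9 and 12, and 10.36, 11.04 and 11.08 on the arrays of clone 2. Array 1 lay within the empty vector range and the other two far above it. The difference was 0.48 (SE 0.14, limma adjusted p = 0.0897 without clone 8). The small heat shock protein HSPB1 went the other way, with 9.83, 9.88 and 9.94 in the empty vector clones and 9.53, 9.21 and 9.55 on the arrays of clone 2. Each array was below each empty vector clone, and the difference was -0.46 (SE 0.13, limma adjusted p = 0.0902 without clone 8).

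The 3 arrays of clone 2 did not give the same result. Array 1 had 19 chaperones above the empty vector mean with a median of 0.04, array 2 had 25 with 0.31, and array 3 had 24 with 0.39, while the medians of all genes were 0.02, 0.04 and -0.01. The SD between these arrays had a median of 0.23 over the chaperones and was largest, at 0.52, for HSPE1 (8.72, 9.58 and 9.67). With array 1 as the only array of clone 2 and without clone 8, no chaperone passed, while 602 genes did (5.38%). DNAJA1 had 0.44 (limma adjusted p = 0.144), BAG1 0.35 (0.174) and STIP1 0.32 (0.147). Without clone 8 and array 2, DNAJA1 and STIP1 passed among 396 genes (3.54%), and without clone 8 and array 3 only DNAJA1 among 273 genes (2.44%). Without clone 8 and array 1, 8 chaperones passed among 1016 genes (9.07%), including FKBP4 (0.72), DNAJB1 (0.63), CCT2 (0.54), CCT3 (0.45) and, lower, HSPB1 (-0.50). Without clone 8 and without either empty vector clone 2 or 3, none passed, while 71 and 69 genes did (0.634% and 0.616%). The DNAJA1 difference was 0.74 both times, with limma adjusted p of 0.0916 and 0.0994.

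**Figure D3:**
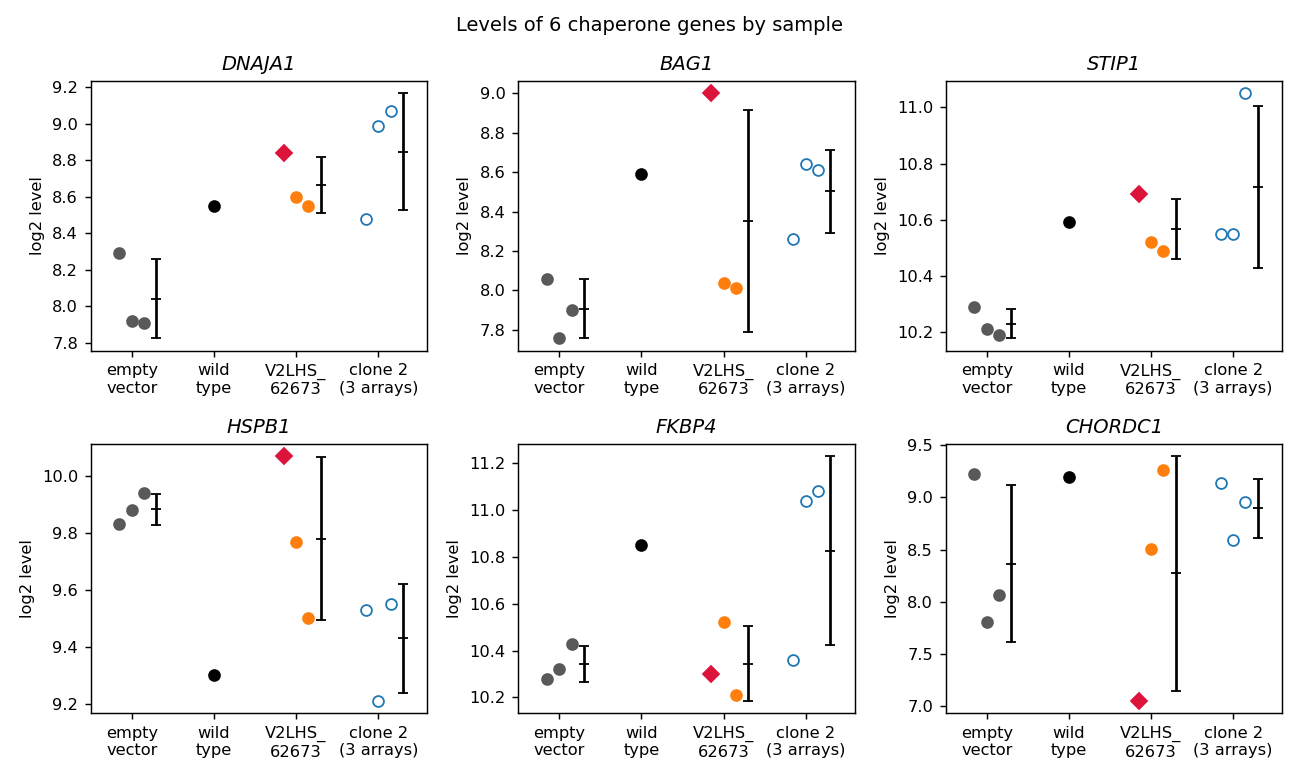
Log2 level of DNAJA1, BAG1, STIP1, HSPB1, FKBP4 and CHORDC1 in each sample: empty vector clones (grey), wild type cells (black), clones 9 and 12 (orange) with clone 8 as a red diamond, and the 3 arrays of clone 2 (open blue, 1 clone); bars are the mean ± SD of the points of a group, and each panel has its own log2 axis, which does not start at 0. DNAJA1 is above the empty vector clones in all other samples, and HSPB1 is lowest in wild type cells and on array 2 of clone 2.

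Wild type cells also had more chaperones above the empty vector clones than below. The comparison uses the same 3 empty vector clones as the one before, so the pair are not independent. In wild type cells 22 chaperones were higher and 6 lower, with a median of 0.30, while 48.2% of all genes were higher and their median was -0.01. They lay above all 3 empty vector clones in 17 (of all genes, 30.1%) and below all 3 in 4 (of all genes, 30.4%). With all clones no gene passed (0%), and 1 chaperone, FKBP4, and 290 genes (2.59%) had an unadjusted p under 0.05. Without clone 8, 2 chaperones passed, BAG1 higher and HSPB1 lower, among 400 genes (3.57%), and 15 chaperones, 14 of them higher, and 2207 genes (19.7%) had an unadjusted p under 0.05.

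BAG1 was at 8.59 in wild type cells, above every empty vector clone, a difference of 0.68, or 1.60-fold (SE 0.13, limma adjusted p = 0.0281 without clone 8; adjusted p = 1.0 with it). HSPB1 was at 9.30, the lowest of the 8 samples, a difference of -0.58 (SE 0.13, limma adjusted p = 0.0431 without clone 8; adjusted p = 1.0 with it). Neither passed without clone 8 and either empty vector clone 2 or 3, while 37 and 18 genes did (0.33% and 0.161%). FKBP4 was at 10.85 in wild type cells, a difference of 0.51 (SE 0.14, limma adjusted p = 0.0746 without clone 8).

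The heat-inducible J-domain protein DNAJB1 was at 10.54 in wild type cells and at 9.75, 9.79 and 10.16 in the empty vector clones, a difference of 0.64 (limma adjusted p = 0.0553 without clone 8). All 6 measured TRiC subunits were above the empty vector mean in wild type cells, by 0.16 to 0.44, and also in the mean of the arrays of clone 2, by 0.20 to 0.38. On array 1 of clone 2, CCT2, CCT4, CCT7 and CCT8 lay below the empty vector mean (11.13, 11.22, 11.21 and 8.91, against 11.19, 11.31, 11.40 and 9.05). None of the 12 differences passed with or without clone 8. In clones 9 and 12 the mean over the 6 subunits was 0.01 and -0.06.

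Clone 2 was also set against the clones of V2LHS_62673, which is called the comparison between the constructs. With only 1 clone of V2LHS_62675, a difference of the construct cannot be told apart from one of that clone. With all clones, 22 chaperones were higher in clone 2 and 6 lower, with a median of 0.19, while 45.1% of all genes were higher with a median of -0.05. No gene passed (0%), and 1 chaperone, SERPINH1, and 249 genes (2.22%) had an unadjusted p under 0.05. Without clone 8, 23 were higher and 5 lower (median 0.24, beside 55.5% of all genes and 0.02). No chaperone passed, while 241 genes did (2.15%), and 7 chaperones, all higher, and 1698 genes (15.2%) had an unadjusted p under 0.05. Without clone 8 and array 1 of clone 2, 7 chaperones passed among 958 genes (8.56%), each higher in clone 2: BAG1 (0.60), CCT2 (0.49), CCT3 (0.46), CCT7 (0.59), DNAJA2 (0.54), FKBP4 (0.70) and SERPINH1 (0.59). Without array 2 or array 3 in its place none passed, while 141 and 112 genes did (1.26% and 1.0%). With array 1 as the only array of clone 2 the median was -0.01.

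SERPINH1 had 9.34, 9.53 and 9.6 on the arrays of clone 2, each above clones 8, 9 and 12. The difference was 0.55 (SE 0.21, limma adjusted p = 0.931), and without clone 8 0.52 (SE 0.15, adjusted p = 0.105). DNAJA2, a J-domain protein of the same class as DNAJA1, was at 9.34, 9.54 and 9.55 in the empty vector clones and 9.78 in wild type cells, and at 8.62, 9.37, 9.29 and 9.75 in clones 8, 9, 12 and 2. Its difference between the constructs was 0.65 (SE 0.32), and without clone 8 0.41 (SE 0.14, limma adjusted p = 0.158). FKBP4 had 0.48 (SE 0.21) and without clone 8 0.46 (SE 0.15, limma adjusted p = 0.154). The DNAJA1 difference between the constructs was 0.18 (SE 0.24, 95% interval -0.39 to 0.76).

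**Figure D4:**
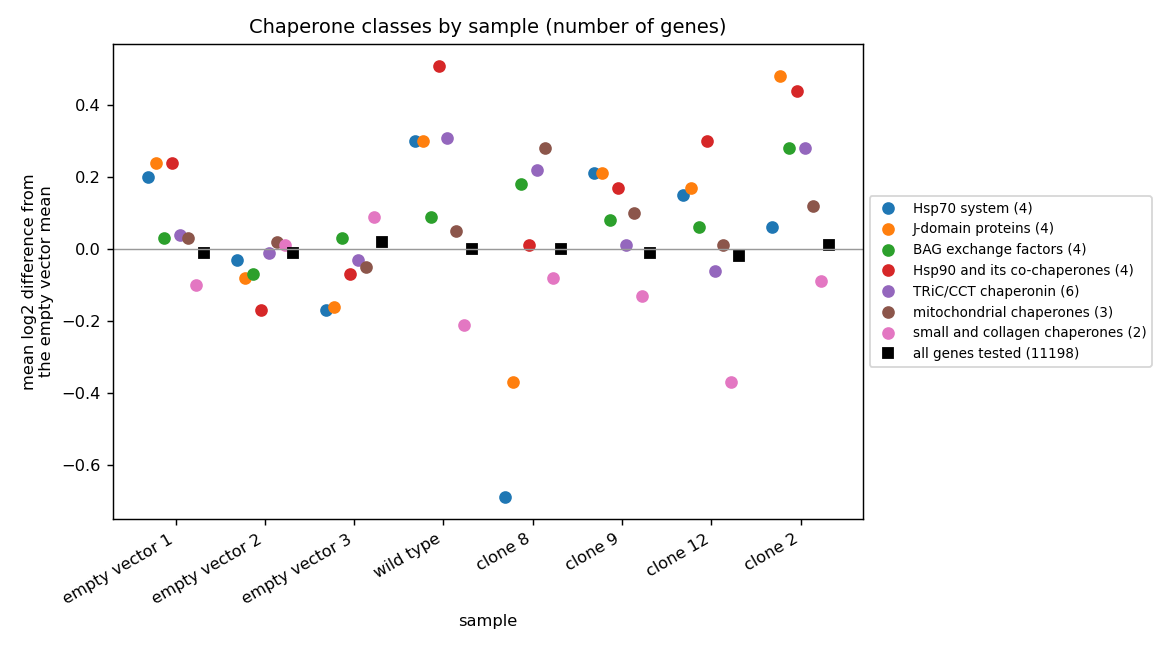
Mean log2 difference from the empty vector mean over the genes of each class with more than 1 gene measured, in each sample, with the mean over all 11198 genes tested (black squares). Clone 2 and wild type cells have Hsp90, J-domain and TRiC classes at 0.28 or more, and clone 8 has the Hsp70 system at -0.69.

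By class, wild type cells and clone 2 (mean of its 3 arrays) shared high means for Hsp90 and its co-chaperones (0.51 and 0.44). The same held for the TRiC chaperonin (0.31 and 0.28) and the J-domain proteins (0.30 and 0.48). On array 1 of clone 2, however, CCT2, CCT4, CCT7 and CCT8 lay below the empty vector mean. Both samples are set against the same empty vector clones. Wild type cells and clone 2 differed in the Hsp70 system, at 0.30 and 0.06. Clones 9 and 12 were above the empty vector mean in the Hsp70 system (0.21 and 0.15), the J-domain proteins (0.21 and 0.17) and the Hsp90 class (0.17 and 0.30). Empty vector clone 1 was also above it in these classes, by 0.20, 0.24 and 0.24. Clone 8 had -0.69 in the Hsp70 system and -0.37 in the J-domain proteins. The mitochondrial chaperones stayed between -0.05 and 0.28 in every sample. These class means carry no test.

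The empty vector clones differed among themselves. Clone 1 exceeded both others by more than 0.2 in 7 of the 28 chaperones, namely HSPA4L, HSPA8, HSPH1, DNAJA1, DNAJB1, DNAJB4 and CHORDC1, and in 4.07% of all genes. It was below both by that much in HSF1 alone, and in 5.84% of all genes. The Hsp70 system and the J-domain proteins had class means of 0.20 and 0.24 in clone 1 and at most -0.03 in the other two. The widest range over the samples other than clone 8 (1.45) was that of CHORDC1, a zinc-binding co-chaperone of Hsp90, at 9.22, 7.81 and 8.07 in the empty vector clones, 9.20 in wild type cells, and 7.05, 8.51, 9.26 and 8.90 in clones 8, 9, 12 and 2. Its SD between the empty vector clones was 0.75, the largest of the 28. The median range over the samples without clone 8 was 0.52 for the chaperones and 0.36 for all genes.

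The 6 chaperones with a heat shock element match upstream had differences of both signs. In clone 2 against the empty vector clones they had differences of 0.80 (DNAJA1), 0.53 (CHORDC1), 0.27 (SERPINH1), 0.14 (BAG2), 0.04 (HSPA8) and -0.46 (HSPB1). In wild type cells they had 0.50, 0.83, 0.16, -0.13, 0.16 and -0.58 in the same order. BAG1 and STIP1, with no match in their windows, had 0.60 and 0.49 in clone 2 and 0.68 and 0.36 in wild type cells. Both were named because they passed in clone 2 without clone 8, so they do not stand for the other chaperones without a match. The search covered 250 bases and exact letters only, and the heat-inducible DNAJB1 and HSP90AA1 had no match in it either. A link between matches and levels was not tested. DNAJA1 and BAG1 lie on chromosome 9 with 3 protein-coding genes between them in the RefSeq order. SMU1 and SPINK4 were measured there, and had 0.35 and 0.78 in clone 2 and -0.09 and 0.22 in wild type cells. Neither was past the threshold in these comparisons. Between the constructs without clone 8, SPINK4 was past it and higher in clone 2 by 1.39.

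The chaperones on shared probes were not tested. HSP90AB1, the constitutive cytosolic Hsp90, on a probe shared with HSP90AB3P, was at 12.79 in clone 8 and between 11.65 and 12.29 elsewhere, with clone 2 higher than the empty vector mean by 0.43. DNAJB6, on a probe shared with TMEM135, was highest in clone 2 at 8.52, which is 0.46 above that mean. TCP1 and HSPA9, on probes shared with small nucleolar RNAs, were each 0.26 above it in wild type cells. TRAP1, CDC37 and the probe of ST13 with the highest level had differences of 0.03, 0.25 and 0.02 between knockdown clones and controls.

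Other genes of the folding pathway were taken from 7 lists of 131 genes, of which 92 were tested. They cover further Hsp70 and J-domain proteins, Hsp90 co-chaperones, prefoldin and chaperonin partners, mitochondrial partners and proteases, small heat shock proteins, heat shock factor partners with other heat-induced genes, and chaperones of the endoplasmic reticulum. In knockdown clones against controls 44 were higher and 48 lower, with a median of -0.01, beside 56.0% of all genes higher. In limma 0 of 92 passed (of all genes, 0%), and 2 had an unadjusted p under 0.05 (of all genes, 2.28%). One of these was SUGT1, an Hsp90 partner of kinetochore assembly, with 0.43 (limma adjusted p = 0.761), and MLF1 had -0.51. In clone 2 against the empty vector clones 60 were higher and 32 lower, with a median of 0.11 (of all genes, 56.4% higher). In wild type cells 55 were higher and 37 lower, with a median of 0.05 (of all genes, 48.2% higher).

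Without clone 8, 1 of the 92 passed in clone 2 (of all genes, 3.73%). It was the prefoldin subunit VBP1 with 0.60 (SE 0.12, limma adjusted p = 0.0232). In wild type cells 1 passed higher and 1 lower (of all genes, 3.57%). These were the TRiC subunit CCT6A with 0.49 (limma adjusted p = 0.0484) and PDCL, a phosducin-like chaperonin partner, with -0.48 (0.0468). Between the constructs 2 passed (of all genes, 2.15%), both higher in clone 2. They were the transcription factor gene JUN with 1.04 (limma adjusted p = 0.0389) and the ubiquitin gene UBB with 0.63 (0.0416). With all clones none of the 92 passed in any of the 5 comparisons, and neither did any other gene (0%).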

How the data were processed

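RNA of DLD-1 cells was measured on 10 exon arrays. The authors deposited 1 log2 value for each of 22011 probes on each array. The log2 scale was read from the values, and how background, normalization and probe summaries were handled is not given in the sources used here. Cells grew in RPMI, and Trizol RNA was depleted of ribosomal RNA, per the labels' protocols. Values were used as deposited. Genes were named from the platform annotation, which can be old: 14432 probes carried 1 symbol, 2408 several and 5171 none, and 14404 of the first matched RefSeq by gene ID. The highest-mean probe was used per gene, and genes below the 25th percentile of the probe means (log2 5.96) were dropped.

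The titles of the V2LHS_62675 arrays name clone 12 and biological replicates. Their descriptions and the design text name repeats of clone 2, which was followed, and the 3 arrays were averaged.

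Genes were tested with limma 3.58.1 (lmFit, eBayes) in R 4.3.3, two-sided, with Benjamini-Hochberg adjustment over 11198 genes at 0.05. Knockdown clones and controls were compared in a fit of 2 groups (6 residual degrees of freedom, prior 3.91), and the other contrasts came from a fit of 4 groups (4 and 3.26; without clone 8, 3 and 7.62). No labels give batches or say whether cultures were separate, so p-values measure the spread between these samples. The fit of 2 groups was tested on simulated data, with planted changes larger than the chaperone differences reported here. The fit of 4 groups was not simulated. Single genes were also compared by exact permutation, with p-values not adjusted for the choice of gene.

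The chaperones, related lists and naming rule were chosen with earlier results of these data known. Named were the gene with the smallest p in each class, the 3 smallest p in each other comparison, any gene past the threshold with or without clone 8, and 2 genes per related list. Alternatives were quantile normalization, median centring, other filters, array weights, other uses of the arrays of clone 2, fewer controls and leaving out each sample. Leaving out clone 8 together with a further sample, array or scaling was added after the data were seen.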

Additional observations from a re-analysis of the deposited data

Results flagged for a closer look

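In each gene the 4 knockdown clones and the 4 controls were searched for a sample far from the other 3 of its group by Dixon's test. Of 56 groups, 4 held one, and chance gives about 1 in 20. The share over all genes was not taken for this search, so the count cannot be read as a trait of the chaperones. DNAJB4, a J-domain protein, was at 6.97 in clone 8 and at 8.09 to 8.30 in the other knockdown clones. The TRiC subunits CCT3 and CCT4 were at 8.91 and 11.68 in wild type cells, and at 8.44 to 8.48 and 11.28 to 11.34 in the empty vector clones. HSPE1 was at 9.33 in clone 2 and at 9.24 to 9.25 in the others, a gap smaller than the SD of 0.52 between the 3 arrays of clone 2.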

How the results depend on the processing

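In knockdown clones against controls no chaperone passed under any of the 23 alternatives, and 13 of 28 kept their sign in all of them. HSPA4L turned to 0.09 with array weights, 0.13 without clone 8 (from -0.63 to 0.13 with any 1 sample left out), and 0.18 without clone 8 and wild type cells. With 1 more sample or array left out beside clone 8, the number passing ran from 0 to 3 for V2LHS_62673 against the empty vector clones, 0 to 8 for clone 2, 0 to 6 for wild type cells and 0 to 7 between the constructs, while all genes passing ran from 3 to 492, 69 to 1016, 18 to 745 and 69 to 958. Without clone 8, quantile normalization left 1 in clone 2 (DNAJA1, of 282 genes) and 1 in wild type cells (BAG1, of 205). Median centring of the same samples left 2 (of 269) and 1 (of 283). Array 1 as the only array of clone 2, without clone 8, gave 0 in clone 2 (of 602 genes) and 2 in wild type cells (of 400). FKBP4 then had -0.01 between the constructs. With the replicate number as a block over the empty vector clones and the arrays of clone 2, 5 chaperones and 943 genes passed, against 3 and 1029 of the same 6 arrays without it. The numbers do not pair the samples (correlations of deviations 0.03, -0.15 and -0.23), and repeats of 1 clone count as replicates in both fits. Counts over all genes, 0 in each comparison, became 4, 156, 72, 13 and 27 with array weights (in the order of the report), 1, 5, 58, 0 and 15 with every array as a replicate, and 0, 4, 1, 0 and 4 with clone as a random block. Calls for clone 2 and wild type cells rest on the spread of 5 samples.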
